A study of Homo sapiens with 6 samples.

Results

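Of 18417 gene symbols with a probe set of their own on these arrays, 42 were protocadherin genes, that is, symbols starting with PCDH on rows annotated to exactly 1 symbol, with the row of highest mean signal kept for each symbol. They comprised 18 genes of the beta cluster (PCDHB), 12 of the alpha cluster (PCDHA), 1 of the gamma cluster (PCDHGB4) and 11 genes outside the clusters. The cells were passage 14 neural stem cells of SA-01, a human embryonic stem cell line. One group received the compound X5050 at 100 µM and the other the solvent DMSO at 0.1%, in both cases from 5 h after plating and for 24 h. Each group had 3 arrays, and the 3 independent cultures behind them were taken to have given 1 X5050 and 1 DMSO sample each, which is how the design text was understood. All cells came from 1 line, and X5050, which the series title calls a REST inhibitor, was given at 1 dose and 1 time.

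Protocadherins are cadherin-type cell adhesion proteins of the nervous system. The alpha, beta and gamma genes lie one after another on chromosome 5. Each alpha or gamma gene contributes a variable first exon that is spliced to constant exons shared by its cluster, whereas each beta gene is a single coding exon with no shared constant part. Each neuron uses a small, largely random set of these genes, chosen at promoters that bind the insulator protein CTCF, and the resulting surface proteins bind only their own kind, which lets a neuron tell its own branches from those of others. Non-clustered protocadherins, most of them of the delta-1 and delta-2 subfamilies, are expressed by region and act in cell sorting and axon growth. In mouse, an enhancer of the alpha cluster carries an element bound by the repressor REST, and the comparison shows how mRNA of the family stood after a compound described as acting on REST.

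Signals are log2 values per probe set, and every change is X5050 minus DMSO. Array medians lay between 5.68 and 5.75 over 33297 probe sets, and any pair of arrays correlated at 0.984 to 0.993. The mean signals of 15 neural stem cell markers lay between the 54.2nd (SOX1) and the 99.8th (FABP7) percentile of the 19460 tested probe sets, with VIM, SOX2 and PAX6 next to FABP7. Those of 11 neuronal markers ran from the 39.9th (SYP) and 43.4th (RBFOX3) to the 99.9th (STMN2) percentile, with GAP43 and MAP2 at the 98.6th. Mesenchymal markers differed widely between cultures, their mean signal over 11 genes lying between 6.74 and 7.94 on the X5050 arrays and between 7.07 and 8.41 on the DMSO arrays. In bulk RNA, fewer cells of a type and less RNA per cell cannot be told apart.

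Most beta genes had a lower signal with X5050, and the non-clustered genes had no common direction. The log2 change of 16 of the 18 beta members was negative. Its median over the 18 was -0.34, and within cultures 1, 2 and 3 it was -0.16, -0.34 and -0.47. For the 13 other clustered genes the median was -0.079 (10 below 0), and for the 11 non-clustered genes it was 0.068 (5 below 0). Over all tested probe sets the median was 0.0092, with 9214 below 0. PCDHB14 and PCDHB13 fell at an adjusted p under 0.05 in the fit that compares X5050 and DMSO within each culture (limma with the replicate number as a block). These 2 of 42 protocadherins stand against 0.498% of all probe sets that were called by this rule, 0.308% lower and 0.19% higher. No protocadherin rose by it. At an unadjusted p under 0.05, 11 beta members were lower and 0 were higher, against 7.48% and 7.06% of all probe sets. Without culture 3 the 11 became 7, and 11 of the 18 changes were below 0. Without the replicate block the adjusted p called 0 protocadherins and 0% of all probe sets, and the unadjusted p again 11 beta members as lower and 0 as higher, against 4.88% and 4.5% of all probe sets. The classes themselves were not tested against each other.

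**Figure D1:**
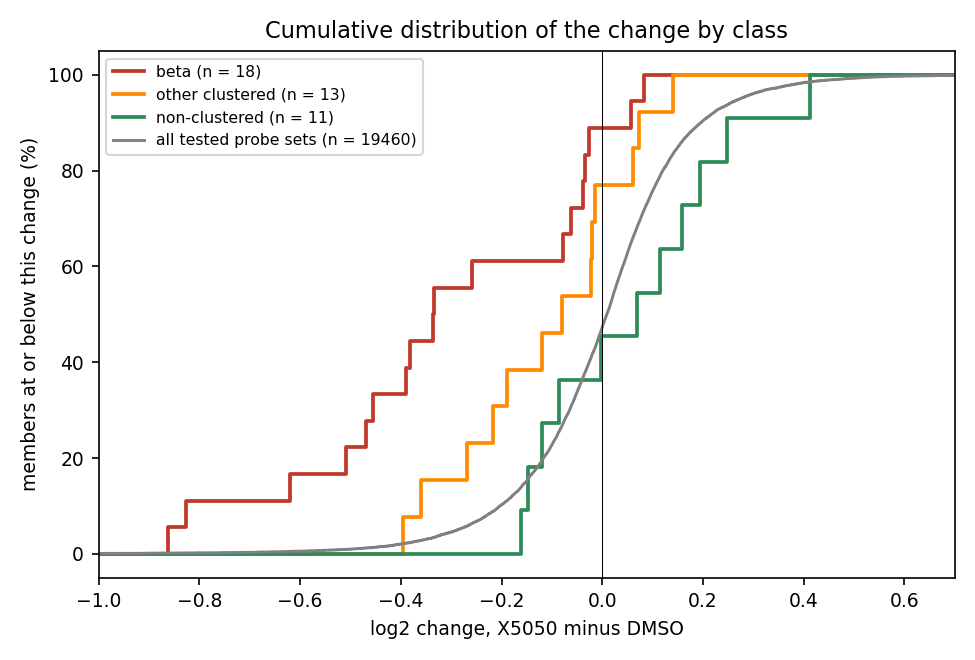
Cumulative percentage of members (vertical axis) at or below a log2 change, X5050 minus DMSO (horizontal axis), for the 18 beta, 13 other clustered and 11 non-clustered members and for all 19460 tested probe sets. The beta line lies to the left of the others over most of its range, with its median at -0.34, and 16 of its 18 steps are below 0.

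PCDHB14 had the largest change of the family. Its signal was 7.15, 7.34 and 6.96 in the X5050 samples of cultures 1, 2 and 3, against 8.12, 7.94 and 8.00 in the DMSO samples. Every X5050 value lay below every DMSO value, with changes of -0.96, -0.59 and -1.03 within cultures 1, 2 and 3. It averaged 7.15 ± 0.19 with X5050 and 8.02 ± 0.093 with DMSO (SD, n = 3 each) and fell by 0.86 on the log2 scale (1.82-fold, SE 0.11, 95% interval -1.11 to -0.61, adjusted p = 0.0322 in limma). Its adjusted p was 0.172 without the replicate block, 0.187 without culture 3, and 0.284 when all 33297 probe sets of the table, unnamed ones included, were tested.

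PCDHB13 had signals of 5.63, 5.82 and 5.66 with X5050, against 6.38, 6.52 and 6.07 with DMSO. The groups did not overlap, and the gap was narrowest in culture 3. It averaged 5.70 ± 0.10 with X5050 and 6.32 ± 0.23 with DMSO (SD, n = 3 each), a fall of 1.54-fold (log2 change -0.62, SE 0.10, adjusted p = 0.0488 in limma). This call lies close to the threshold: the adjusted p was 0.317 without the replicate block, 0.0968 without culture 2, 0.161 without culture 3, 0.0587 after another quantile normalization and 0.311 with all probe sets tested.

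PCDHB15, the last gene of the cluster, had a change nearly as large as that of PCDHB14. It stood at 4.37, 3.86 and 4.16 with X5050, against 4.81, 4.73 and 5.33 with DMSO, so that again no X5050 value reached the lowest DMSO value. The log2 change was -0.83 (1.77-fold, SE 0.14, adjusted p = 0.0514 in limma), just short of the call, and its mean signal was at the 18.2nd percentile of the tested probe sets. Without culture 1 it passed, with a change of -1.02 and an adjusted p of 0.00343 in limma. It did not pass without culture 2 (0.0812), without culture 3 (change -0.65, 0.269) or without the block (0.341).

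PCDHB5 had the highest signal of the beta members. It measured 9.21, 8.74 and 9.08 with X5050, against 9.47, 9.47 and 9.62 with DMSO, without overlap. The log2 change was -0.51 (1.42-fold, SE 0.11, adjusted p = 0.0957 in limma), and it passed without culture 1 (-0.64, adjusted p = 0.0230). The adjusted p in limma was 0.211 without culture 2 (change -0.39), 0.381 without culture 3 and 0.342 without the block.

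Of the other beta members with an unadjusted p under 0.05, PCDHB3 stood at -0.47 and PCDHB11 at -0.45. PCDHB11 was at 6.31, 6.19 and 6.33 with X5050, against 6.48, 6.79 and 6.93 with DMSO. PCDHB9 (-0.39), PCDHB16 (-0.38), PCDHB12 (-0.34), PCDHB2 (-0.33) and PCDHB10 (-0.26) were also lower in each culture. Their adjusted p ran up to 0.229, so none of these 7 was called. For PCDHB2 and PCDHB9 most of the change came from cultures 2 and 3, with -0.057 and -0.027 in culture 1. PCDHB12 had changes of -0.31, -0.31 and -0.39 in cultures 1, 2 and 3. PCDHB10 had an SD of 0.015 over the X5050 samples and 0.081 over the DMSO samples. In all, 11 of the 18 beta genes were lower in all 3 cultures, against 17.5% of all probe sets, and 0 were higher in all 3, against 18%. The 3 X5050 values lay entirely below the 3 DMSO values for 10 of the 18, all of these 11 except PCDHB3, against 7.41% of all probe sets.

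**Figure D2:**
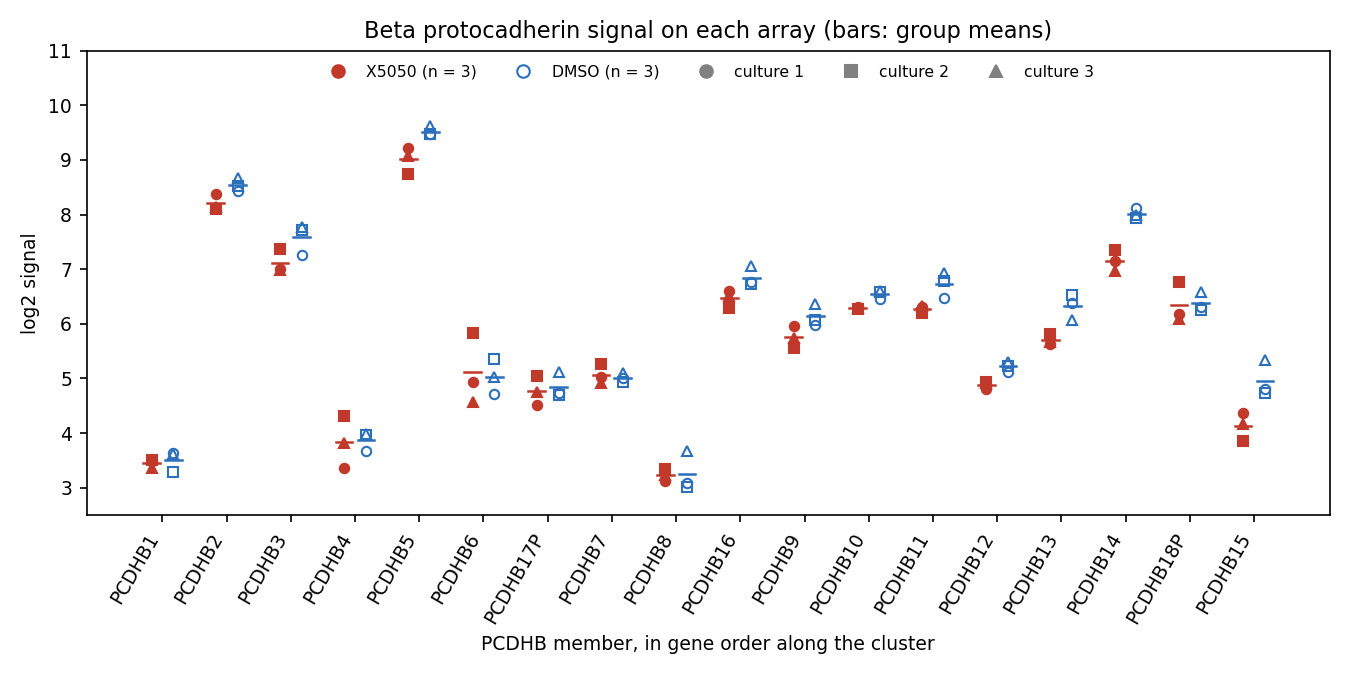
Log2 signal (vertical axis) of the 18 beta members on each array, in gene order along the cluster, with X5050 in filled red symbols, DMSO in open blue symbols, the culture by symbol shape and group means as bars. From PCDHB16 to PCDHB15 the X5050 values lie below the DMSO values for every gene but PCDHB18P, while from PCDHB6 to PCDHB8 the groups overlap.

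The remaining 7 beta members moved differently between cultures. PCDHB1, PCDHB4, PCDHB6, PCDHB7, PCDHB8 and the pseudogenes PCDHB17P and PCDHB18P had mean changes between -0.078 and 0.083. All 7 were higher with X5050 in culture 2 and all 7 were lower in culture 3, with medians of 0.35 and -0.37. PCDHB6, for example, was at 4.94, 5.83 and 4.57 with X5050, against 4.72, 5.35 and 5.02 with DMSO. Their signals were low, 6 of the 7 below the median of the tested probe sets (6.26), and PCDHB8 was at 3.23 ± 0.11 with X5050 and 3.26 ± 0.37 with DMSO (SD, n = 3 each). Over all probe sets below that median the change in culture 2 had a median of 0.059, and in culture 3 of 0.0085. A signal this dim has no detection call here, so whether these transcripts were present is not known.

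Low signal was not particular to these 7, since PCDHB15, PCDHB12, PCDHB9 and PCDHB13 were also below the median. Of the 8 beta members at or above it, 7 were lower in all 3 cultures, against 23% of all probe sets that bright, and PCDHB18P was the exception. Their median change was -0.42, and that of the 10 dimmer members was -0.070. Across the 18 beta genes the rank correlation of mean signal with change was -0.52, as a description over probe sets that share the same arrays. It was -0.39 over the 13 other clustered genes, 0.36 over the 11 non-clustered ones and -0.064 over all tested probe sets. The other clustered genes had a median change of -0.19 at or above the median signal and of -0.018 below it.

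**Figure D3:**
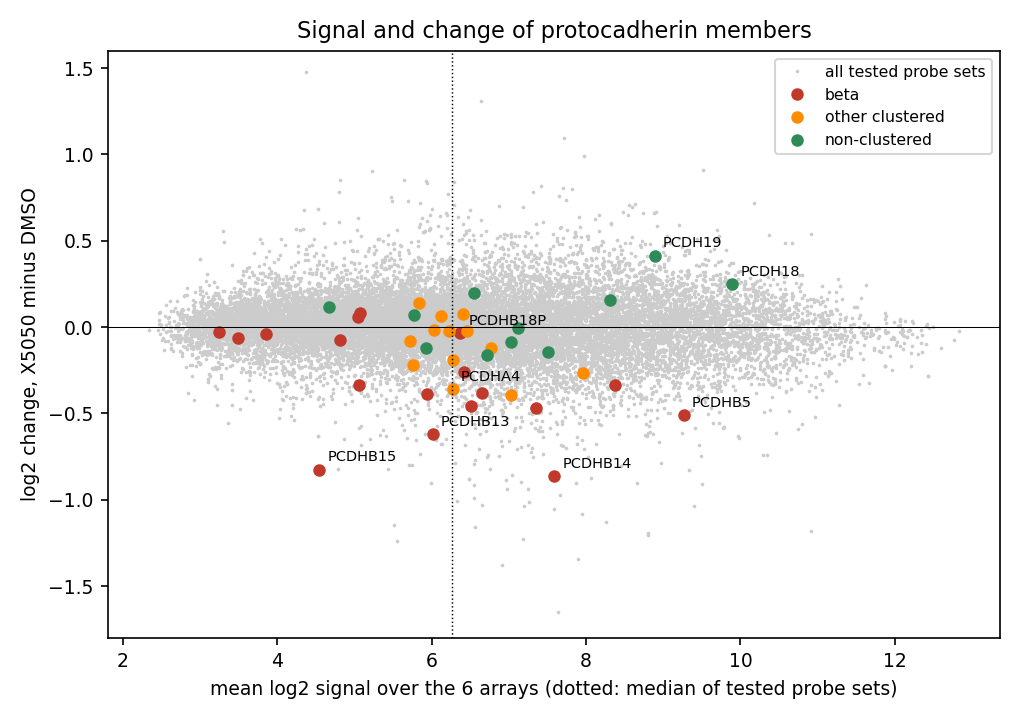
Log2 change, X5050 minus DMSO (vertical axis), against the mean log2 signal over the 6 arrays (horizontal axis), with all tested probe sets in grey, the 3 protocadherin classes in colour and the median signal (6.26) as a dotted line. PCDHB14 (change -0.86) and PCDHB15 (-0.83) lie near the lower edge of the cloud at mean signals of 7.59 and 4.54, and PCDH19 (0.41) toward its upper edge at 8.89.

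In the order of the genes, PCDHB6, PCDHB17P, PCDHB7 and PCDHB8 stand next to each other and were among the 7 without a common direction, and PCDHB16 follows them. From PCDHB16 to PCDHB15, the second run of 9 genes, 8 were lower in all 3 cultures and the median was -0.39. In the first 9 only PCDHB2, PCDHB3 and PCDHB5 were, and the median was -0.061. The other 6 of the first 9 all had a signal below the median of the tested probe sets, as had 4 of the second 9. The cut into 2 runs of 9 was not a planned comparison, and position and signal were not tested apart. The beta genes are close in sequence, so a probe set may also detect a neighbour, which was not tested. No rows of the family held identical values.

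The promoters of the 3 beta genes with the largest changes are shown because the beta promoters share a short element, the conserved sequence element of clustered protocadherin promoters, which is known as a CTCF site. The sequences are RefSeq's (GRCh38.p14), the 250 bases upstream of the annotated start, 5′ to 3′, with the letters TGGCGCT in capitals.
PCDHB14, chr5:141223093-141223342, plus strand: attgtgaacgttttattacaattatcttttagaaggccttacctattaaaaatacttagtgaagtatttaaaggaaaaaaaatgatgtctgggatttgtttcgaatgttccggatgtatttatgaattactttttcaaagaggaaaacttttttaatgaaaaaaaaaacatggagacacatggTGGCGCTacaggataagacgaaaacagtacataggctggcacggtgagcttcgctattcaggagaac
PCDHB13, chr5:141213669-141213918, plus strand: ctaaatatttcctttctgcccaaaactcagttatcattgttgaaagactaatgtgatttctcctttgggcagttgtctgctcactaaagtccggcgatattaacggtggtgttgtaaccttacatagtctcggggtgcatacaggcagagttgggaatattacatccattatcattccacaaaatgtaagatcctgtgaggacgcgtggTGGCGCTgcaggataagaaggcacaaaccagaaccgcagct
PCDHB15, chr5:141245145-141245394, plus strand: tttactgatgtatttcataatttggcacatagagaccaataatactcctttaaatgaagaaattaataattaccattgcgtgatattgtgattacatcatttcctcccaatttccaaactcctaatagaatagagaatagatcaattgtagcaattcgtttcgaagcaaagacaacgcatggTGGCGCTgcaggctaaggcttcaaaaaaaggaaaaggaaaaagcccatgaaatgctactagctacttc

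Of the 18 beta members 14 were matched to a promoter in the RefSeq table (300 bases, 250 before and 50 after the start), and PCDHB6, PCDHB11, PCDHB17P and PCDHB18P were not. The run TGGCGCT, searched on both strands, was in 13 of these 14, against 4.11% of 27305 promoters. It was in 3 of 20 gamma promoters and in 0 of 13 alpha and 0 of 9 non-clustered ones. The run was searched in exact letters only, so it cannot show whether other promoters carry a CTCF site of different letters. In the beta promoters it belongs to a longer shared run, GGTGGCGCTGCAGG, the run of 14 bases found unbroken in the largest number of them. It was in 8 of the 27305 promoters, all 8 of them of beta genes, and another 4 beta promoters held it with 1 mismatch. The promoters of PCDHB4, PCDHB7 and PCDHB1, genes without a common direction, are set here beside that of PCDHB5, whose signal was lower with X5050, with the 14 bases closest to the shared run in capitals.
PCDHB5, chr5:141135184-141135209, plus strand: acgcctGGTGGCGCTGCAGGctaaga
PCDHB4, chr5:141121728-141121753, plus strand: acgcagGGTGGCGCTGCAGGctaagt
PCDHB7, chr5:141172571-141172596, plus strand: acgcaaGGTGGCGCTGCTGGctaaaa
PCDHB1, chr5:141051342-141051367, plus strand: gcctttGGTGGTGCTGCAGTtagagg

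Genes with and without a lower signal both carried the element. PCDHB4 carried the shared run unbroken and stood at -0.039, PCDHB5 carried the same run and stood at -0.51, and PCDHB14, with the largest change, had 1 mismatch to it. Of the 13 beta genes with TGGCGCT in the promoter, 10 had an unadjusted p under 0.05 and a lower signal, and PCDHB4, PCDHB7 and PCDHB8 did not. PCDHB1, the one without it, had 2 mismatches at its closest 14 bases and stood at -0.061 with a signal of 3.46 ± 0.082 with X5050 and 3.52 ± 0.20 with DMSO (SD, n = 3 each). The mean signals of PCDHB4, PCDHB7 and PCDHB8 were low, at percentiles 9.5, 25.6 and 3.1 of the tested probe sets, and that of PCDHB5 was at 90.5. PCDHB15 and PCDHB12, which carried the run and were lower, were at 18.2 and 25.9. The part of signal in these differences was not tested. The letters of the 2 parts of the REST element were searched as well. TTCAGCACC was in 0 of the 14 beta promoters and in 0.407% of all promoters. GGACAGC was in 0 beta, 2 alpha, 1 gamma and 1 non-clustered promoter, against 6.1% of all. These windows do not cover enhancers. With shares this low over all promoters, 0 among 14 is a common outcome, and only exact letters were searched. The search therefore cannot decide whether beta promoters lack the REST element.

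Among the other clustered genes, 2 alpha members and the gamma member were lower in all 3 cultures with an unadjusted p under 0.05, and none was called. At that p 3 of the 13 were lower, against 7.48% of all probe sets. In all 3 cultures 4 were lower, against 17.5% of all probe sets. PCDHA10 was at 6.73, 6.89 and 6.86 with X5050, against 6.93, 7.29 and 7.46 with DMSO. PCDHA4 was at 5.88, 6.15 and 6.24 with X5050, against 6.27, 6.55 and 6.53 with DMSO. The groups did not overlap for either gene. The log2 change of PCDHA10 was -0.40 (SE 0.10, adjusted p = 0.135 in limma) and that of PCDHA4 was -0.36 (SE 0.087, adjusted p = 0.116). PCDHGB4, at 7.96, 7.51 and 8.02 with X5050 against 8.20, 7.89 and 8.20 with DMSO, overlapped and had a change of -0.27 (SE 0.090, adjusted p = 0.216 in limma).

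PCDHA13 was at 6.17, 6.14 and 6.25 with X5050, against 6.17, 6.49 and 6.47 with DMSO (-0.19, SE 0.10), with a difference in cultures 2 and 3. PCDHA11 stood at -0.22 and PCDHA12 at -0.12, neither of them lower in all cultures. The other alpha genes lay between -0.079 (PCDHA2, whose second row stood at -0.13) and 0.14 (PCDHA1). For PCDHA1 all 3 X5050 values lay above the DMSO values. A row annotated to 15 alpha genes together, which was not counted as a member, was at 5.56, 5.72 and 5.63 with X5050, against 5.55, 5.67 and 5.59 with DMSO, a change of 0.035 (SE 0.081). How far the probes of each alpha row are specific to 1 gene is not given in the sources used here. The other gamma genes are not analysed here.

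**Figure D4:**
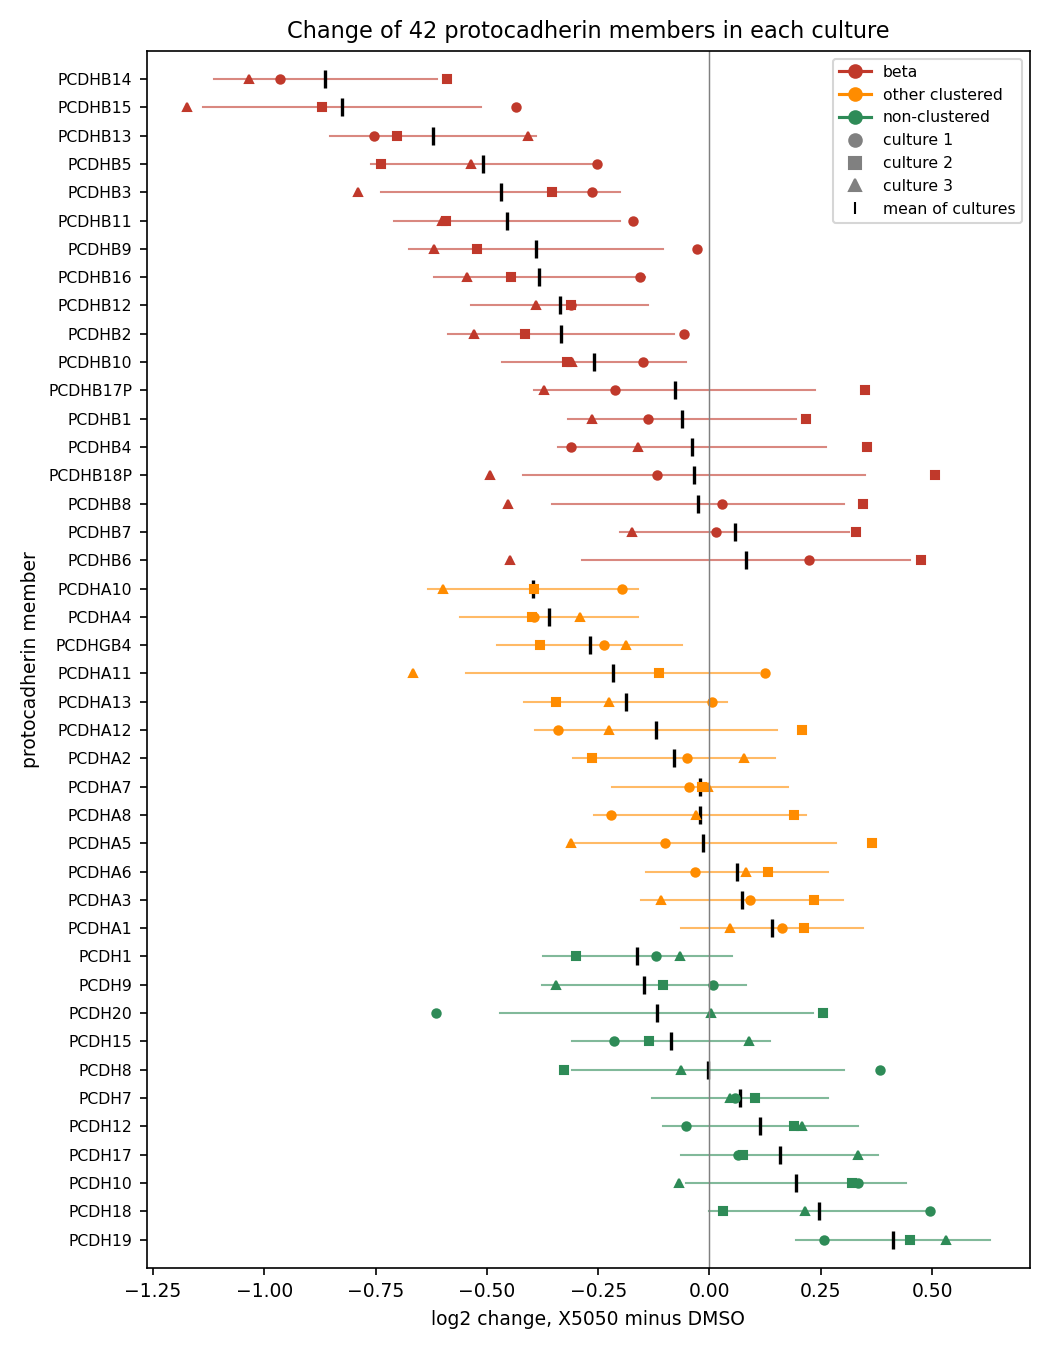
Log2 change, X5050 minus DMSO (horizontal axis), of the 42 protocadherin members, with 1 symbol per culture, the mean of the cultures as a black tick and the limma 95% interval as a line, coloured by class and sorted within it. The 11 beta genes at the top have all 3 cultures below 0, and PCDH19 at the bottom has all 3 above 0.

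PCDH19 had the largest change among the non-clustered genes, toward a higher signal with X5050. This delta-2 protocadherin, an X-linked gene whose mutations cause an epilepsy syndrome, was at 8.97, 9.37 and 8.95 with X5050, against 8.72, 8.92 and 8.42 with DMSO. All X5050 values lay above all DMSO values, and the changes in cultures 1, 2 and 3 were 0.26, 0.45 and 0.53. The log2 change was 0.41 (1.33-fold, SE 0.095, 95% interval 0.20 to 0.63), with an adjusted p of 0.108 in limma, so it was not called. It was the 1 of 11 non-clustered members with an unadjusted p under 0.05 in limma, against 7.06% of all probe sets higher by it. The adjusted p of PCDH19 ranged from 0.0555 to 0.499 over the alternatives.

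None of the 5 delta-2 genes, PCDH19 included, passed the test, and all but PCDH8 had a mean change above 0. PCDH18, which in mouse binds the reelin adaptor Dab1, was at 9.83, 10.08 and 10.13 with X5050, against 9.33, 10.05 and 9.92 with DMSO (0.25, SE 0.11). Most of its change came from culture 1, where DMSO was low. PCDH17, which links contacts between axons to actin regulators, was at 8.31, 8.37 and 8.49 with X5050, against 8.25, 8.30 and 8.15 with DMSO (0.16, SE 0.096), without overlap. PCDH10, which recruits the actin regulator NCKAP1, was at 6.73, 6.56 and 6.66 with X5050, against 6.39, 6.24 and 6.73 with DMSO (0.19, SE 0.11), and culture 3 did not share the direction. PCDH8, an activity-induced protein at synapses in rat, was 0.38 higher in culture 1 and 0.33 lower in culture 2 (mean change -0.0034). The median of the 5 delta-2 genes was 0.19, and their adjusted p lay between 0.108 and 0.995.

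None of the 3 delta-1 genes passed the test. PCDH1, an adhesion protein also found in airway epithelium, was at 6.67, 6.52 and 6.73 with X5050, against 6.79, 6.82 and 6.79 with DMSO, without overlap (-0.16, SE 0.093). PCDH9 was at 7.61, 7.41 and 7.26 with X5050, against 7.61, 7.51 and 7.60 with DMSO (-0.15, SE 0.10). PCDH7 was at 6.09, 5.77 and 5.55 with X5050, against 6.03, 5.67 and 5.50 with DMSO. Its cultures differed more than its treatments, and the change within each culture was between 0.046 and 0.10.

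Of the remaining non-clustered genes none had a common direction in all cultures. PCDH15, part of the tip link of hair cells, was at 7.16, 7.45 and 6.35 with X5050, against 7.38, 7.58 and 6.26 with DMSO. Its signal was lowest in culture 3 in both groups, and its cultures differed more than its treatments. PCDH12, known from endothelium, was at 4.62, 4.79 and 4.78 with X5050, against 4.68, 4.60 and 4.57 with DMSO. PCDH20 was at 5.86, 6.03 and 5.70 with X5050, against 6.48, 5.78 and 5.70 with DMSO, with changes of -0.61, 0.25 and 0.0038 in the 3 cultures.

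Of 22 genes next to the clusters on chromosome 5, 12 were below 0, the median was -0.015, and 0 were called, against 0.498% of all probe sets. At an unadjusted p under 0.05 in limma 4 were lower and 0 higher, against 7.48% and 7.06% of all probe sets. In all 3 cultures 6 were lower and 4 higher, against 17.5% and 18%. TAF7, a general transcription factor subunit whose gene lies between the beta and gamma clusters, was 9.77, 9.51 and 9.77 with X5050, against 9.84, 9.81 and 9.97 with DMSO (-0.19, SE 0.092, adjusted p = 0.409 in limma). Its neighbour SLC25A2, a mitochondrial carrier, had a change of 0.14 (SE 0.16). The smallest p among these 22 genes belonged to NDUFA2 of respiratory complex I (-0.48), the formin DIAPH1 (-0.33) and the splicing factor gene ZMAT2 (-0.29), with an adjusted p of at least 0.115.

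Of 20 measured factors known to act on clustered protocadherin promoters, enhancers or silencing, 11 were below 0, with a median of -0.031. Of these factors 0 were called, against 0.498% of all probe sets. At an unadjusted p under 0.05 in limma 2 were lower and 1 was higher, against 7.48% and 7.06% of all probe sets. CTCF was at 9.90, 9.80 and 9.89 with X5050, against 9.83, 10.04 and 9.94 with DMSO (-0.073, SE 0.097). REST was at 8.39, 8.22 and 8.33 with X5050, against 8.48, 8.37 and 8.25 with DMSO (-0.057, SE 0.092). The 3 with the smallest p were the DNA methyltransferase DNMT3B (-0.32), the cohesin subunit STAG1 (-0.39) and the cohesin loader NIPBL (0.25), with adjusted p of 0.160, 0.183 and 0.232 in limma. DNMT3B, which methylates clustered protocadherin promoters in mouse, was lower in each culture.

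Of 20 measured binding and signalling partners of protocadherins 10 were below 0 and 0 were called. Over all probe sets 0.308% were called lower and 0.19% higher, which also applies to the cadherins and catenins that follow. The sheddase ADAM10, which cleaves protocadherins, stood at 0.31, the focal adhesion kinase PTK2 at 0.27 and the WAVE complex subunit BRK1 at -0.24. Of 18 FAT, DCHS, CELSR, CLSTN and CDHR cadherins 13 were above 0 with a median of 0.10, and FAT3, a giant cadherin that shapes retinal neurons in mouse, was called. FAT3 was at 8.46, 8.92 and 8.47 with X5050, against 7.95, 8.25 and 7.87 with DMSO (0.60, 1.51-fold, SE 0.089, adjusted p = 0.0429 in limma, but 0.342 without the block). FAT4 (0.44) and CDHR3 (0.40) came next. Of 18 classical and type II cadherins 0 were called, and CDH10 (0.47), CDH8 (0.38) and CDH18 (0.33) had the smallest p. Of 6 catenins 0 were called, with CTNND2 at 0.26, CTNNA1 at -0.15 and CTNNA3 at 0.16.

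Marker lists gave these values beside the lower beta signals, and over all probe sets 0.308% were called lower and 0.19% higher. The median change of 11 neuronal markers was -0.018, with 6 below 0, SNAP25 called (0.66), SYT1 at 0.48 and MAP2 at 0.16. That of 15 neural stem cell markers was -0.10, with 9 below 0, LIX1 called (-1.38), NES at -0.42 and ZBTB16 at 0.22. Of 11 mesenchymal markers 9 were below 0, with LUM called (-1.09), TAGLN at -0.89 and PRRX1 at -0.35. Their median was -0.34, -0.16 and -0.065 in cultures 1, 2 and 3. Astroglial markers had a median of 0.029 over 8 genes, with GJA1 called (-0.61), S100B at 0.20 and ALDH1L1 at 0.19. The 7 oligodendrocyte lineage markers had a median of 0.036 with 0 called (OLIG1 0.10, PDGFRA -0.18, OLIG2 0.093), and the 3 pluripotency markers were DPPA4 (-0.32), LIN28A (0.0032) and ZFP42 (0.0056). The part of any of these in the change of the beta genes was not tested.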

How the data were processed

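Gene expression was measured on 6 Affymetrix arrays, 3 per treatment, from 100 ng of total RNA each, per the labels' protocols. The values the authors deposited are log2 signals per probe set. RMA and Partek appear in the submitters' processing notes, without versions or a genome build. RMA corrects background, normalizes the arrays and summarises probes, which compresses changes of dim probe sets. Depth does not apply to arrays, and their number limits the precision.

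Groups and replicate numbers came from the sample titles. Of 33297 probe sets the 19460 with 1 gene symbol in the platform annotation were tested, 1754 had several symbols and 12083 are unnamed here. X5050 minus DMSO was fitted with limma 3.58.1 (R 4.3.3, lmFit and eBayes, two-sided), the replicate number being a block, with Benjamini-Hochberg adjustment over all 19460 (threshold 0.05). After subtracting group means, X5050 and DMSO arrays of equal number had correlations of 0.365, 0.297 and 0.255, and arrays of unequal number had -0.236 to -0.052. The replicate numbers were used as pairs, which is how the design text on cultures was understood. Subtracting group means ties the correlations of unequal numbers to those of equal numbers, so they add no separate information. A shared culture and a shared processing batch cannot be told apart by these values. In simulated data for this comparison (19460 probe sets) the blocked fit recovered 82% of changes of 0.5, and 100% of changes of 1. It made 24 false calls beside 41, 100 and 50 true calls at sizes of 0.5, 1 and 2. The fit without the block recovered 4% and 87%, with 0 false calls. The simulated arrays were given culture differences and a residual spread taken from the blocked fit. The simulation therefore cannot decide which fit suits the real arrays. A rank-based permutation of 3 against 3 arrays cannot go below 0.1.

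The members and gene lists were chosen with earlier results of these data known. Values per array are given for the members called, for the 4 with the smallest p in each subclass and for the brightest one. From other lists the genes called, or the 3 with the smallest p, are named with REST and CTCF. Other members with values, and TAF7, SLC25A2 and the markers given with percentiles, were chosen after their values were seen. Gene order and promoters are from RefSeq (GRCh38.p14), used only for names, order and sequences, since the array's build is not given in the sources used here. Alternatives were the fit without the block, each culture left out, another quantile normalization, median centring, no dim probe sets, a trended robust prior, all probe sets of the table, and other choices of rows.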

Additional observations from a re-analysis of the deposited data

How the results depend on the processing

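Without the replicate block limma called 0 probe sets higher and 0 lower, against 37 and 60 with it, and 0 protocadherins. At an unadjusted p under 0.05 this fit had 875 higher and 949 lower, with 11 beta members lower. With all 33297 probe sets tested in the blocked fit the counts were 0 and 0, with 0 protocadherins, and at an unadjusted p under 0.05 they were 1580 and 1907, with 11 beta members lower. Another quantile normalization called 18 higher and 33 lower, with 1 protocadherin. Leaving out dim probe sets called 120 and 132, with 1 protocadherin, and the trended robust prior 118 and 147, with 4. With 1 culture left out the counts ranged from 0 to 113 higher and from 0 to 233 lower, and from 0 to 6 protocadherins fell: 6 without culture 1, 1 without culture 2 and 0 without culture 3. Without culture 3 the unadjusted p had 871 higher and 968 lower, with 7 beta members lower, against 11 without culture 1 and 10 without culture 2. The cause of these differences was not tested.

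The median change of the beta genes stayed between -0.41 and -0.26 with 1 culture left out and was -0.070 for the dimmer members, a split chosen after seeing the data. For the other clustered genes it was -0.19 without dim probe sets, and -0.13 to -0.0095 with 1 culture left out. For the non-clustered genes it was 0.047 after another quantile normalization, 0.049 with arrays centred on their medians and 0.068 to 0.12 with 1 culture left out.

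For 14 members that were called in no setting the sign changed with 1 culture left out. Over those fits PCDHB1 ranged from -0.20 to 0.040, PCDHB4 from -0.24 to 0.096, PCDHB6 from -0.11 to 0.35, PCDHB7 from -0.080 to 0.17, PCDHB8 from -0.21 to 0.19, PCDHB17P from -0.29 to 0.069 and PCDHB18P from -0.31 to 0.19. PCDHA2 ranged from -0.16 to 0.013, PCDHA3 from -0.0085 to 0.16, PCDHA5 from -0.21 to 0.13, PCDHA8 from -0.13 to 0.080 and PCDHA11 from -0.39 to 0.0065. PCDH8 ranged from -0.20 to 0.16 and PCDH20 from -0.31 to 0.13, and PCDH8 was 0.012 after another quantile normalization. Signal over background was not analysed here, so no probe set could be called absent.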
